A study of Mus musculus with 9 samples.

Results

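The genes described here make, sense, move and export cholesterol. They are 29 members picked by symbol from the 24054 genes that the deposited tables list, and all 29 were measured well enough to enter the test, which covered 14452 genes. The members comprise 18 enzymes of cholesterol synthesis, 4 sterol-sensing genes, the transfer protein Stard4, the 2 liver X receptor genes and 4 targets of these receptors. Of these targets Abca1, Abcg1 and Apoe serve export and Mylip acts on uptake. Expression was measured by mRNA sequencing of dendritic cells sorted from the spleen of C57BL/6 mice that were homozygous for both Clec9a-Cre and the Rosa-tdTomato reporter. TOM+ cells are those in which Cre was active under Clec9a control, now or in a precursor, and TOM- cells carry the same alleles without the mark. The 9 libraries formed 3 groups of 3, namely TOM+ cDC2 and TOM- DC2 from mice at postnatal day 8, here called young, and TOM+ cDC2 from adults, of which 1 library came from mice of 9 weeks and the others from mice of 8 weeks. In all groups the gate was live, single, autofluorescence-negative cells with MHCII, CD11c and CD11b on their surface, and each young library was sorted from several pooled spleens. The study calls the libraries biological replicates, but the labels do not tie them to animals, so p-values here measure the spread between libraries, part of which may be technical.

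Cholesterol is built from acetyl-CoA, first along the mevalonate arm to farnesyl diphosphate and then through squalene and lanosterol to the finished sterol. When sterol in the endoplasmic reticulum runs low, SCAP escorts the SREBP factors, encoded by Srebf1 and Srebf2, to the Golgi, where they are cleaved and go on to switch on the enzymes, whereas INSIG1 holds the complex back when sterol is plentiful. Sterol excess, sensed as oxysterols, activates the liver X receptors (LXR), which raise ABCA1, ABCG1 and apolipoprotein E for export and MYLIP, a ubiquitin ligase that removes lipoprotein receptors from the surface. In dendritic cells and macrophages this balance sets the lipid content of membranes.

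Letters upstream of 6 members are shown first, because Hmgcs1, Sc5d and Hsd17b7 are synthesis enzymes that were all lowest in the same adult library, and Mvd, Pmvk and Nr1h2 are among the members that differed with age. The sequences are from RefSeq on GRCm38.p6, the assembly that mm10 names, and hold only bases before the annotated start, without any base of a GENCODE vM21 exon or of the gene's own span in RefSeq. They cover chr13:119690101-119690350 on the plus strand, chr8:122443423-122443672 on the minus strand, chr9:42264301-42264550 on the minus strand, chr1:169969243-169969408 on the minus strand, chr3:89454291-89454540 on the plus strand and chr7:44553969-44554215 on the minus strand, each written along its gene. Capitals mark matches, on either strand, to the letters TCACCCCAC or TCACNCCAC, a sterol regulatory element, to CCAAT, the box bound by the factor NF-Y, and to GGGCGG, the box bound by Sp1. A match on the other strand stands in capitals as the reverse complement of its letters.
Hmgcs1: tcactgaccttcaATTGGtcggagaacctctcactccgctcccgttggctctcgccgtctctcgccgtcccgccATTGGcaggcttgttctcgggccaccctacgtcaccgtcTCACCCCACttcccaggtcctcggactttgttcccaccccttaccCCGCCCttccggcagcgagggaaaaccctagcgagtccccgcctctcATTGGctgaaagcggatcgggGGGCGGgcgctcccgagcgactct
Mvd: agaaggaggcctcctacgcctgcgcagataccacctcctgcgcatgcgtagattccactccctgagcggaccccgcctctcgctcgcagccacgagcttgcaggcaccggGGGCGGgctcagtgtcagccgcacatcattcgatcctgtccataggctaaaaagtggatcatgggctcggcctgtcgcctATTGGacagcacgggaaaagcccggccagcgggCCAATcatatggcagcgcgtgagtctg
Sc5d: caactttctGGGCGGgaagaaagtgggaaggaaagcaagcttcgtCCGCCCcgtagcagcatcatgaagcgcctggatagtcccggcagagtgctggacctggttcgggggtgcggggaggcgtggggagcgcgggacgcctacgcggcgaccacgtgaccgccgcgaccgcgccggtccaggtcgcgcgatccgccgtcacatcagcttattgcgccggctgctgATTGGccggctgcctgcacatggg
Hsd17b7: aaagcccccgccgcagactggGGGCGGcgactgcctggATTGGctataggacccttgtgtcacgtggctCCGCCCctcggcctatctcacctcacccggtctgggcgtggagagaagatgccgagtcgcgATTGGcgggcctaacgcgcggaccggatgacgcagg
Pmvk: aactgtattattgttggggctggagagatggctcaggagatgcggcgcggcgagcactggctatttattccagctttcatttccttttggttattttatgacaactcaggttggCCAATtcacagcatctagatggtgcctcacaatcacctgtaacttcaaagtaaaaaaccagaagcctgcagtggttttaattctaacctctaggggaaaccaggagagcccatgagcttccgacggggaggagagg
Nr1h2: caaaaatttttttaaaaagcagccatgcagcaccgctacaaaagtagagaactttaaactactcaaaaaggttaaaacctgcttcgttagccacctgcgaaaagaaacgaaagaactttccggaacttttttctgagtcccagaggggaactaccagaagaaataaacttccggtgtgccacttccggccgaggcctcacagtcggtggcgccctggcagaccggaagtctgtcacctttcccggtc

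RefSeq windows of 250 bases before to 50 after a start were at hand for 24 of the 29 members and 15 of the 18 enzymes, without Fdps, Fdft1, Sqle, Stard4 and Abcg1. CCAAT occurred in a window of 14 of the 15 enzymes and of 4 of the 9 other members, against 41.1% of the 27025 genes in the table. GGGCGG occurred in 14 of the 15 enzymes and 6 of the 9 others, against 38.2% of all genes. TCACCCCAC, whose letters are also a match to TCACNCCAC, was in the window of 1 member, Hmgcs1, 137 bases before the start, and in 0.614% of all genes, while TCACNCCAC was in 1.44% of all genes. Acat2 was the enzyme without CCAAT and Pmvk the enzyme without GGGCGG. None of these letters was found in the windows of Nr1h2, Nr1h3 and Apoe. A match describes letters and was not read as a binding site, and its absence says only that the letters are not in this window.

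Levels of the members spanned a wide range, as the plot of TPM by library shows. TPM (transcript abundance scaled to a fixed library total) is the authors' measure of a gene's share of a library after division by transcript length, so levels of different genes can be set side by side. Srebf2 was the most abundant member, with 142 to 204 TPM over the 9 libraries, followed by Nr1h2 (70.6 to 118) and Apoe (33.3 to 168). The lowest was Abca1, the exporter that loads lipid onto free apolipoprotein, with 0.37 to 0.83 TPM from 28 to 114 counted reads, and its partner exporter Abcg1 lay between 6.52 and 16.0 TPM. Srebf1, whose product mainly drives fatty acid synthesis, stood at 25.0 to 41.7 TPM, below Srebf2 in every library. Among the enzymes, Fdps (39.7 to 86.3 TPM) and Pmvk (45.3 to 111) led, and Tm7sf2 (1.51 to 4.69), Hsd17b7 (2.29 to 5.95) and Lss (4.59 to 6.96) were the lowest. Idi1 reached 24.3 to 42.3 TPM although STAR counted only 16 to 54 reads for it. RSEM, which also uses reads that match several places, assigned 33.8 times as many, so its level rests mostly on reads that the counts leave out. Idi1 also shares exon bases with Gm48574, and whether the reads left out matched several places or overlapping genes was not tested. The same ratio was 2.73 for Fdps, 1.86 for Acat2, 1.68 for Fdft1, 1.48 for Insig1 and 0.862 to 1.08 for the other members. Counting used no strand, and exons of 10 members overlap those of another gene in GENCODE vM21 (Tm7sf2 with Vps51, Srebf1 with Rai1, Cyp51 with Akap9 and Fdft1 with Ctsb among them), so their values are less certain.

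**Figure D1:**
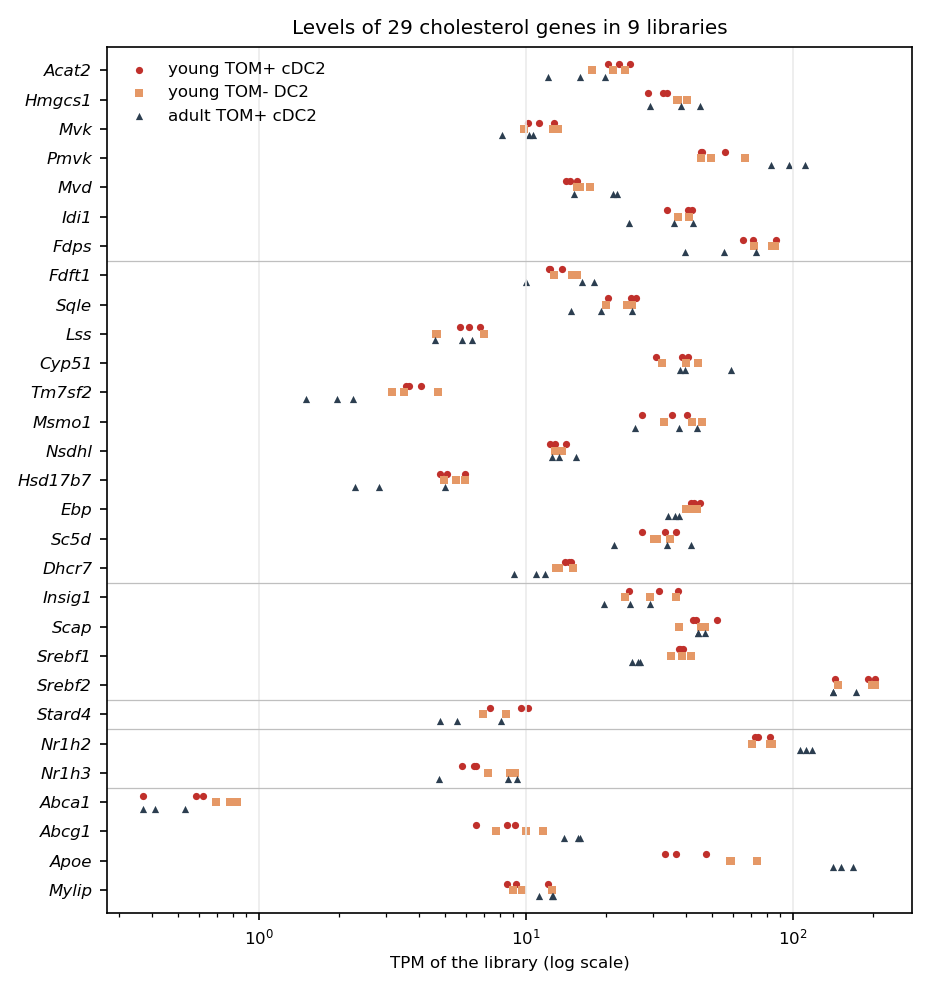
TPM of the 29 members on a log axis, with 1 point per library (circles young TOM+ cDC2, squares young TOM- DC2, triangles adult TOM+ cDC2) and lines between the role groups. Srebf2 lies furthest right at 142 to 204 TPM and Abca1 furthest left at 0.37 to 0.83 TPM, and the adult triangles of Apoe, Nr1h2, Abcg1 and Pmvk stand to the right of all young points.

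Gene counts ranged from 12783252 to 22809401 per library. All 12 cDC2 markers were detected in every library, and their summed level was 61800 to 66100 TPM in young TOM+ cDC2, 58800 to 63700 in young TOM- DC2 and 92800 to 96100 in adult cells. Most of this sum is Cd74 and H2-Ab1, and the list was not uniform, since in each comparison with adults 3 of the 12 were higher and 8 lower in young cells. Singled out after their values were seen, Itgam, Sirpa and Clec10a were higher (log2 fold change 0.78, 0.56 and 1.80 in young TOM+ cells) and Esam was lower (-2.21, edgeR adjusted p = 7.16e-06). Macrophage markers, 15 genes, summed to 398 to 420, 512 to 568 and 275 to 340 TPM in the same order, with Cd5l, Marco and Siglec1 under 1 TPM in every library. Proliferation genes were higher in young cells, with 9 of 10 past the threshold in each comparison with adults and sums of 1350 to 1400, 1250 to 1290 and 583 to 713 TPM. Immediate early genes summed to 9070 to 13000, 8740 to 12900 and 13800 to 18700 TPM, with 4 and 5 of 7 lower in young TOM+ and TOM- cells. Erythroid genes reached 700 TPM and neutrophil genes 29.5 TPM in young TOM- DC2 replicate 1, against at most 46.4 and 1.01 TPM in any other library. In young TOM+, young TOM- and adult cells monocyte genes summed to 57.2 to 88.5, 51.7 to 79.3 and 63.6 to 101 TPM. The sums were 104 to 109, 109 to 116 and 122 to 164 TPM for pDC genes. They were 60.9 to 70.6, 69.9 to 80.7 and 41.1 to 53.8 TPM for B cell genes, mostly Cd79b. For cDC1 genes they were 24.6 to 27.4, 24 to 27.4 and 11.4 to 12.3 TPM, with Clec9a and Itgae under 1 TPM throughout. The paper states that mice with Cre on both Clec9a alleles lack functional DNGR-1, the Clec9a product. Low Clec9a is therefore no measure of cDC1 cells here. T and NK cell genes summed to at most 6.19 TPM. Fewer cells of a type and less RNA per cell cannot be told apart in bulk libraries, and the part of these markers in the differences described here was not tested.

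Whether cells of the same lineage mark differ with age was asked by comparing young with adult TOM+ cDC2. Of the export genes, Apoe was 4.27-fold and Abcg1 2.08-fold below the adult level in young cells, while Abca1 did not pass. Mylip, which acts on uptake, was 1.33-fold lower, a call that several alternatives did not keep. The receptor gene Nr1h2 was 1.61-fold and the enzyme gene Pmvk 2.21-fold lower. The transcription factor gene Srebf1 and the late enzymes Tm7sf2 and Dhcr7 were higher in young cells by 1.34-fold, 1.76-fold and 1.26-fold. Of the 29 members, 10 passed an adjusted p of 0.05 in edgeR's quasi-likelihood test, 3 higher and 7 lower in young cells, which is 34.5% of the members against 40.6% of all genes tested (21% higher and 19.5% lower). A change beyond 1 on the log2 scale was passed by 3 members, Pmvk, Abcg1 and Apoe, against 12.8% of all genes, and the groups did not overlap for 10 members, against 51.1% of all genes. For 23 of the 29 members the log2 fold change was under 0.5 in size, which is 79.3% against 55.9% of all genes. The median over the members was -0.01 against 0.05 over all genes. No result about the members as a group was drawn from these shares, and the account that follows is of single members.

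Young TOM- DC2 were set against the same 3 adult libraries, so the 2 comparisons with adults are not independent and their values are given side by side. In that comparison 8 members passed, 2 higher and 6 lower in young cells, which is 27.6% against 36.3% of all genes (19.4% higher and 16.9% lower). Pmvk and Apoe also exceeded a log2 fold change of 1, against 11.3% of all genes, and 11 members did not overlap between groups, against 47.6%. In both comparisons 8 members passed, in 1 of them 2, and in neither 19. The balance of higher and lower members depended on the scale and on adult replicate 3. Without that library 6 members were higher and 6 lower in young TOM+ cells, and 6 higher and 4 lower in young TOM- cells. On log2(TPM + 1), where the median of all genes moved from 0.05 to 0.10 for TOM+ and from 0.07 to 0.14 for TOM- cells, limma passed 5 higher and 4 lower members in young TOM+ and 7 higher and 4 lower in young TOM- cells. Without young TOM- replicate 1, the library with erythroid transcripts, 7 members passed. Pmvk, Srebf1, Nr1h2, Abcg1 and Apoe passed in every alternative fit of both comparisons.

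**Figure D2:**
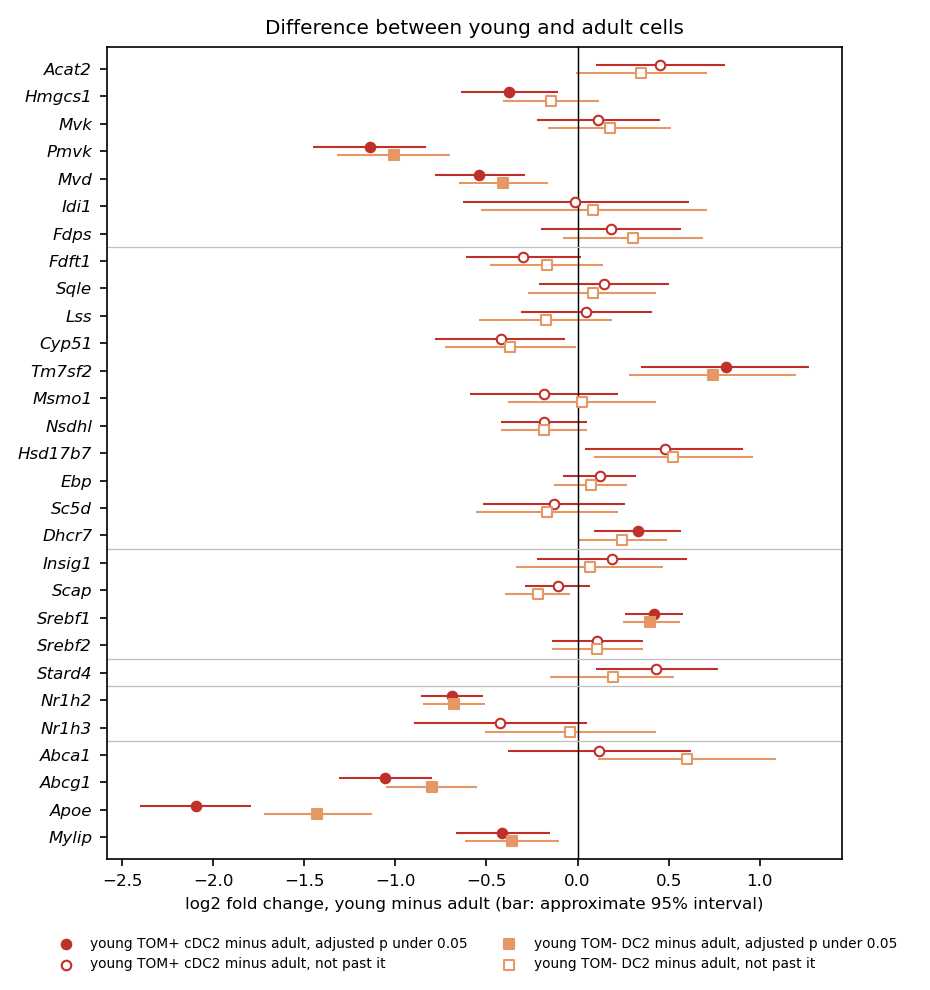
Log2 fold change of each member, young minus adult, from edgeR on STAR counts, with approximate 95% intervals; red circles are young TOM+ cDC2 and orange squares young TOM- DC2, both against the same adult libraries, and filled symbols passed an adjusted p of 0.05. Apoe lies furthest left at -2.10 and -1.43, most enzymes lie within 0.5 of 0, and Tm7sf2 and Srebf1 are the filled points to the right in both comparisons.

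On the efflux side, Apoe encodes apolipoprotein E, the secreted acceptor that carries cholesterol away from macrophages (chr7:19696244-19701310, minus strand). Its level was 33.3, 36.5 and 47.2 TPM in young TOM+ cDC2, 58.8, 58.4 and 73.3 TPM in young TOM- DC2 and 142, 168 and 152 TPM in adult cells. The 3 groups did not overlap, with young TOM+ cDC2 lowest and adult cells highest. Against adult cells the log2 fold change was -2.10 ± 0.16 (SE; edgeR adjusted p = 1.3e-06) in young TOM+ cDC2 and -1.43 ± 0.15 (edgeR adjusted p = 2.18e-05) in young TOM- DC2. Summed macrophage markers were lower in adult than in young cells and higher in TOM- than in TOM+ young cells. The largest part of this sum was Emr1, which hardly differed with age (log2 fold change -0.02 and 0.10). Against adults, 5 of the 15 markers passed as higher and 1 as lower in young TOM+ cells, and 9 as higher and 0 as lower in young TOM- cells. The part of these markers in the Apoe differences was not tested.

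Abcg1, the transporter that passes cholesterol to lipoprotein particles (chr17:31057694-31117984, plus strand), followed the same order. It stood at 9.09, 6.52 and 8.48 TPM in young TOM+ cDC2, 11.6, 7.72 and 10.1 TPM in young TOM- DC2 and 14.0, 15.7 and 16.0 TPM in adult cells. Each adult library was above each young one, while the young groups overlapped. The log2 fold changes against adult cells were -1.06 ± 0.13 (SE; edgeR adjusted p = 4.56e-05) and -0.80 ± 0.13 (edgeR adjusted p = 0.000424). Mylip was 12.2, 9.22 and 8.53 TPM in young TOM+ cDC2, 12.6, 9.67 and 8.95 TPM in young TOM- DC2 and 11.2, 12.5 and 12.7 TPM in adult cells. Its groups overlapped in TPM but not in normalized counts, where the log2 fold changes were -0.41 ± 0.13 and -0.36 ± 0.13 (SE; edgeR adjusted p = 0.0254 and 0.0499). The first of these calls was lost, at an adjusted p of 0.0612 to 0.0883, without young TOM+ replicate 2 or 3 or adult replicate 2 or 3, and the second without young TOM+ replicate 2, young TOM- replicate 2 or 3 or any adult library (0.0637 to 0.151). Limma on TPM made neither call (0.194 to 0.313), and the second was also lost without the count filter (0.0535). Abca1 passed in neither comparison, with 0.62, 0.37 and 0.58 TPM in young TOM+, 0.83, 0.69 and 0.78 in young TOM- and 0.37, 0.41 and 0.53 in adult cells. Its log2 fold changes were 0.12 ± 0.25 and 0.60 ± 0.25 (SE; edgeR adjusted p = 0.74 and 0.0805), and the latter passed without adult replicate 3 (0.0403) and in limma on log2(TPM + 1) (0.0256).

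Among the receptors, Nr1h2 encodes LXR beta, the form found in most tissues (chr7:44549616-44553968, minus strand). It measured 82.2, 74.3 and 72.3 TPM in young TOM+ cDC2, 83.8, 70.6 and 82.2 TPM in young TOM- DC2 and 112, 118 and 107 TPM in adult cells. All adult libraries were above all young ones, and the 2 young groups overlapped. The log2 fold changes were close to each other, -0.69 ± 0.09 in TOM+ and -0.68 ± 0.09 in TOM- cells (SE; edgeR adjusted p = 5.24e-05 and 7.32e-05). Nr1h3, which encodes LXR alpha, the form typical of liver and macrophages, was much less abundant, with 5.76, 6.50 and 6.40 TPM in young TOM+, 9.16, 8.75 and 7.20 in young TOM- and 8.58, 9.31 and 4.75 in adult cells. Adult replicate 3 was the lowest of all libraries for Nr1h3 and the other adult libraries lay above every young TOM+ library. No call was made (log2 fold change -0.43 ± 0.24, edgeR adjusted p = 0.184, and -0.04 ± 0.24, edgeR adjusted p = 0.912), whereas without adult replicate 3 young TOM+ cDC2 were lower by an edgeR log2 fold change of -0.72 (adjusted p = 0.00659).

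**Figure D3:**
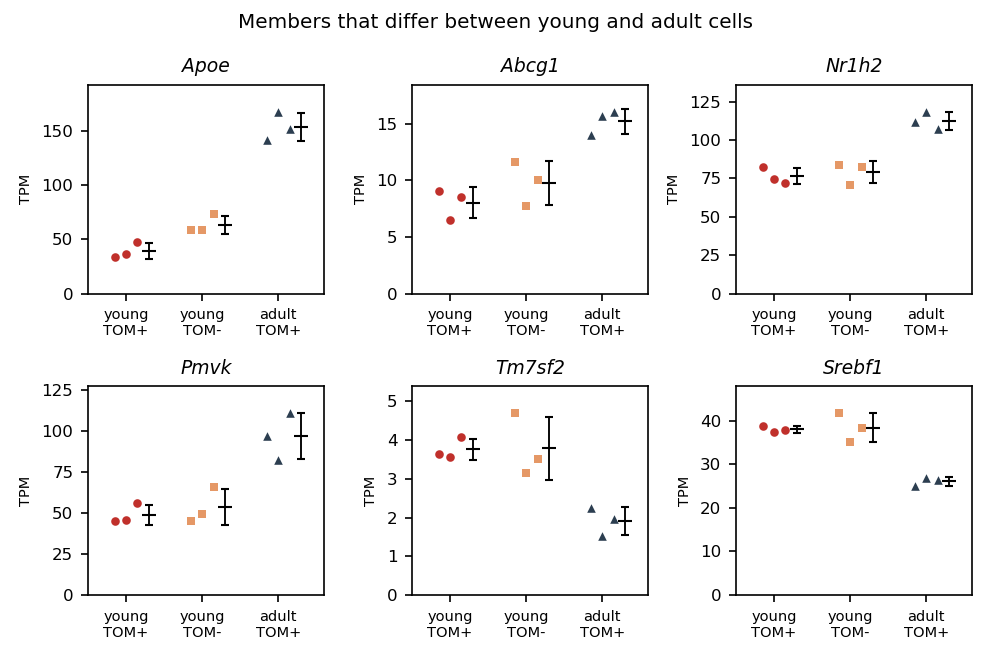
TPM of 6 members by group, with 1 point per library and the mean ± SD of 3 libraries beside the points, on axes that start at 0. Apoe, Abcg1, Nr1h2 and Pmvk are higher in all adult libraries than in any young one, and Tm7sf2 and Srebf1 lower.

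The mevalonate arm held the enzyme with the largest difference, Pmvk, which phosphorylates phosphomevalonate (chr3:89454541-89469014, plus strand). Pmvk was at 45.3, 45.7 and 56.0 TPM in young TOM+ cDC2, 45.5, 49.7 and 66.1 TPM in young TOM- DC2 and 97.3, 82.7 and 111 TPM in adult cells. The adult libraries did not overlap with either young group. It was lower in young cells by a log2 fold change of -1.14 ± 0.16 (SE; edgeR adjusted p = 0.000136) for TOM+ and -1.01 ± 0.16 (edgeR adjusted p = 0.000399) for TOM-. Mvd, which acts on the product of PMVK and removes its carboxyl group, was lower by -0.54 ± 0.13 and -0.41 ± 0.12 (SE; edgeR adjusted p = 0.00434 and 0.022). Its levels were 14.6, 15.5 and 14.1 TPM in young TOM+, 17.4, 15.9 and 15.6 in young TOM- and 21.3, 15.2 and 22.0 in adult cells, so that adult replicate 2 lay within the young range in TPM while normalized counts did not overlap. On the TPM scale limma called Mvd in neither comparison (adjusted p = 0.0531 to 0.21), and the TOM- call was also lost without young TOM- replicate 2 or 3 or adult replicate 1 or 3 (0.0518 to 0.0824). Hmgcs1, the cytosolic synthase that condenses acetyl-CoA and acetoacetyl-CoA, had 28.7, 32.8 and 34.0 TPM in young TOM+, 37.0, 37.2 and 40.3 in young TOM- and 38.3, 29.1 and 45.0 in adult cells. The groups overlapped with adult replicate 2 among the young TOM+ values, and the difference of young TOM+ cells was -0.38 ± 0.14 (SE; edgeR adjusted p = 0.0421), a call that was lost without young TOM+ replicate 1 or 2, young TOM- replicate 2 or adult replicate 1 or 3 (0.0563 to 0.174), with the 2 groups fitted alone (0.0562) and in limma on TPM (0.264 to 0.27). In young TOM- cells the difference was -0.15 ± 0.13 (edgeR adjusted p = 0.425).

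The other 4 enzymes of this arm did not pass in edgeR in either comparison. Acat2, the thiolase that joins acetyl-CoA units at the start, was at 20.3, 22.3 and 24.5 TPM in young TOM+, 17.7, 23.5 and 21.3 in young TOM- and 16.0, 12.1 and 19.8 in adult cells. It lay higher in young TOM+ cells in TPM without overlap, with a log2 fold change of 0.45 ± 0.18 on the counts (SE; edgeR adjusted p = 0.0643), which passed without adult replicate 3 (0.66, adjusted p = 0.0145) and in limma on TPM (0.046 to 0.0484). In young TOM- cells it was 0.35 ± 0.18 (SE; edgeR adjusted p = 0.155, and 0.0348 without adult replicate 3). Fdps, which makes farnesyl diphosphate, the branch point to sterols and to lipid anchors of proteins, had 65.4, 70.9 and 86.3 TPM, 71.7, 83.8 and 86.3 TPM and 55.2, 39.7 and 73.1 TPM in young TOM+, young TOM- and adult cells. Its log2 fold changes were 0.18 ± 0.20 and 0.31 ± 0.20 (SE; edgeR adjusted p = 0.49 and 0.244), the latter passing without adult replicate 3 (0.56, adjusted p = 0.0354) and in limma on TPM (0.0479 to 0.0491). Mvk, the first kinase of the arm, ranged from 8.17 to 13.2 TPM and Idi1, the isomerase, from 24.3 to 42.3 TPM, with edgeR log2 fold changes between -0.01 and 0.18 in both comparisons (adjusted p = 0.449 to 0.979).

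Past squalene, 2 of 11 enzymes passed in young TOM+ and 1 in young TOM- cells, and the median log2 fold changes were 0.05 and 0.02. Tm7sf2 is a sterol reductase that follows CYP51, and it shares exon bases with Vps51 on the same strand. It had 3.65, 3.56 and 4.07 TPM in young TOM+, 4.69, 3.16 and 3.50 in young TOM- and 2.25, 1.51 and 1.97 in adult cells, from 19 to 81 counted reads. No young library was as low as any adult one. The edgeR log2 fold changes were 0.81 ± 0.23 and 0.74 ± 0.24 (SE; adjusted p = 0.015 and 0.0268), and these calls were lost without young TOM+ replicate 3 or adult replicate 2 (0.0544 to 0.0631) and without young TOM- replicate 1 or adult replicate 1 or 2 (0.0541 to 0.0966), and for TOM- cells with the 2 groups fitted alone (0.0578). Lbr is no member, and was picked out of the LXR list after its values were seen, because its product has the same reductase activity. It was far more abundant at 123 to 143 TPM in adult and 188 to 217 TPM in young cells, with edgeR log2 fold changes of 0.45 (adjusted p = 0.000797) and 0.39 (0.00234). Dhcr7, which makes cholesterol from its immediate precursor, stood at 14.1, 14.8 and 14.6 TPM in young TOM+, 13.3, 15.0 and 13.0 in young TOM- and 10.9, 9.01 and 11.8 in adult cells. All young libraries were above all adult ones, with log2 fold changes of 0.33 ± 0.12 and 0.25 ± 0.12 (SE; edgeR adjusted p = 0.0486 and 0.139). The Dhcr7 call did not hold without young TOM+ replicate 2 or 3, young TOM- replicate 3 or adult replicate 1 or 2 (0.0691 to 0.16), nor in DESeq2, with other scaling factors, without the count filter, on RSEM counts or with 2 groups fitted alone (0.0532 to 0.0821), whereas limma on TPM also called Dhcr7 in young TOM- cells (0.0296 to 0.033).

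The remaining 9 late enzymes passed in edgeR in neither comparison, and their edgeR log2 fold changes lay between -0.42 and 0.52. Cyp51, the lanosterol demethylase, had differences of -0.42 ± 0.18 and -0.37 ± 0.18 (SE; edgeR adjusted p = 0.0834 and 0.131), with 30.7, 38.4 and 40.7 TPM in young TOM+, 32.4, 39.8 and 44.2 in young TOM- and 39.6, 38.0 and 58.6 in adult cells. Adult replicate 3 stood above the other adult libraries for this gene, and the TOM+ difference passed in DESeq2 (adjusted p = 0.0447) and, in edgeR, without young TOM- replicate 1 (0.0486). Hsd17b7, which takes part in removing the methyl groups of lanosterol, had 4.78, 5.91 and 5.09 TPM, 4.95, 5.50 and 5.95 TPM and 2.82, 2.29 and 4.97 TPM in young TOM+, young TOM- and adult cells. Here too adult replicate 3 stood apart, inside the young range, and without it the edgeR log2 fold changes moved from 0.48 and 0.52 (adjusted p = 0.108 and 0.086) to 0.85 and 0.90 (adjusted p = 0.00344 and 0.00288), and limma on TPM called the TOM- difference with all libraries (0.0421). Squalene synthase Fdft1 ranged from 9.99 to 18.1 TPM and was lower in young TOM+ cells only when adult replicate 2 was left out (-0.46, edgeR adjusted p = 0.023 against 0.16 with it). Squalene epoxidase Sqle ranged from 14.8 to 25.8 TPM and lanosterol synthase Lss from 4.59 to 6.96 TPM. The demethylating enzymes Msmo1 and Nsdhl ranged from 25.6 to 45.9 and from 12.4 to 15.4 TPM. The isomerase Ebp and the desaturase Sc5d ranged from 34.2 to 45.0 and from 21.4 to 41.5 TPM. On TPM, limma called Ebp higher in young TOM+ and TOM- cells (log2 difference 0.25 and 0.22, adjusted p = 0.0171 and 0.032 with a pseudocount of 1), where edgeR on counts gave 0.12 and 0.07 (adjusted p = 0.366 and 0.603).

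Of the 4 sterol-sensing genes, Srebf1 differed with age (chr11:60199084-60224186, minus strand). Its level was 38.9, 37.4 and 37.9 TPM in young TOM+, 41.7, 35.1 and 38.5 in young TOM- and 25.0, 26.9 and 26.4 in adult cells. Every young library was above every adult one. The log2 fold changes were 0.42 ± 0.08 and 0.40 ± 0.08 (SE; edgeR adjusted p = 0.00114 and 0.00182). Srebf2, whose product is the main driver of the synthesis enzymes, was at 203, 145 and 192 TPM in young TOM+, 204, 148 and 199 in young TOM- and 142, 142 and 173 in adult cells. Its groups overlapped, and the log2 fold change was 0.11 ± 0.13 in both comparisons (SE; edgeR adjusted p = 0.533 and 0.541). Scap ranged from 37.5 to 52.1 TPM (log2 fold change -0.11 and -0.22, edgeR adjusted p = 0.363 and 0.0817, the latter 0.043 in DESeq2 and 0.0488 on RSEM counts) and Insig1, itself a target of SREBP, from 19.7 to 37.2 TPM (0.19 and 0.07, edgeR adjusted p = 0.498 and 0.828). Stard4, which shuttles cholesterol between membranes, had 10.2, 7.38 and 9.57 TPM in young TOM+, 8.41, 6.91 and 8.45 in young TOM- and 5.53, 4.77 and 8.08 in adult cells. Its difference of 0.43 ± 0.17 in young TOM+ cells (SE; edgeR adjusted p = 0.0616) passed without young TOM+ replicate 2 (0.0369) or adult replicate 3 (0.00915).

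Young TOM+ cDC2 and TOM- DC2, which differ in whether Clec9a-driven Cre had been active, were compared at the same age. No member passed in edgeR, against 1.6% of all genes, and none passed with a log2 fold change beyond 1, against 1.18%. At an unadjusted edgeR p under 0.05 there was 1 member, Apoe, which is 3.45% of the members against 9.38% of all genes (1355). Of the 29 members, 28 differed by less than 0.5 on the log2 scale, which is 96.6% against 82.5% of all genes. Groups did not overlap for 3 members, Apoe, Abca1 and Nr1h3, all lower in TOM+ cells, against 16.6% of all genes. Apoe, at 39.0 ± 7.27 TPM in TOM+ and 63.5 ± 8.49 TPM in TOM- cells (SD, n = 3), had a log2 fold change of -0.67 ± 0.15 (SE; edgeR adjusted p = 0.0551). The other 2 were -0.48 ± 0.24 for Abca1 and -0.39 ± 0.24 for Nr1h3 (SE; edgeR adjusted p = 0.599 and 0.719). Apoe passed in DESeq2 (adjusted p = 0.00329) and, in edgeR, without young TOM+ replicate 3 (0.0116) or young TOM- replicate 1 (0.0376).

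The young libraries carry the numbers 81, 91 and 92 in both groups, and same-numbered libraries deviated together, so the comparison was also fitted with the number as a block in the 6 young libraries. With this pairing 3 members passed, all lower in TOM+ cells, against 11.8% of all genes. They were Apoe at -0.67 (edgeR adjusted p = 4.15e-07), Abcg1 at -0.26 (edgeR adjusted p = 0.0255) and Hmgcs1 at -0.23 (edgeR adjusted p = 0.00822). Every TOM- library was above its same-numbered TOM+ library for these 3 genes, as the values given above show. The summed macrophage markers were higher in every TOM- library (512 to 568 TPM) than in every TOM+ library (398 to 420 TPM). In the fit of all 9 libraries without pairing, 13 of the 15 genes had a lower fitted value in TOM+ cells. The other 2, singled out after their values were seen, went the other way. In that unpaired fit Cd163 was the only marker of the list to pass (0.95, edgeR adjusted p = 0.026), and Timd4 did not (1.05, edgeR adjusted p = 0.217). Paired values of these markers are not given. The part of the macrophage markers in the difference was not tested.

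Most synthesis enzymes moved together between libraries of a group. Summed over the 18 enzymes, their mean levels of 468, 494 and 489 TPM in young TOM+, young TOM- and adult cells were close, with SDs of 43.9, 41.9 and 95.7 TPM over 3 libraries each. By library, the sum was 422, 473 and 509 TPM in young TOM+, 448, 503 and 530 TPM in young TOM- and 492, 392 and 583 TPM in adult cells. Adult replicates 2 and 3 thus lay at the bottom and top of all 9 libraries. In normalized counts, young TOM+ replicate 1 was the lowest library of its group for 15 of the 18 enzymes. So were young TOM- replicate 1 for 15 and adult replicate 2 for 15. Mvd and Tm7sf2 did not keep this order in either young group, and Tm7sf2 was highest in young TOM- replicate 1. Over all genes tested, each of the 9 libraries was the lowest of its group for 28.8% to 37.8%. The highest library was replicate 3 for 11, 11 and 16 enzymes, against 30% to 33.6% of all genes. The median deviation of the enzymes from the group mean was -0.18, -0.20 and -0.26 on the log2 scale in the lowest libraries and 0.14, 0.13 and 0.23 in the highest. That of all genes was at most 0.01 in size, which TMM normalization largely sets in advance. This is a description, since the genes of a library are not replicates.

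**Figure D4:**
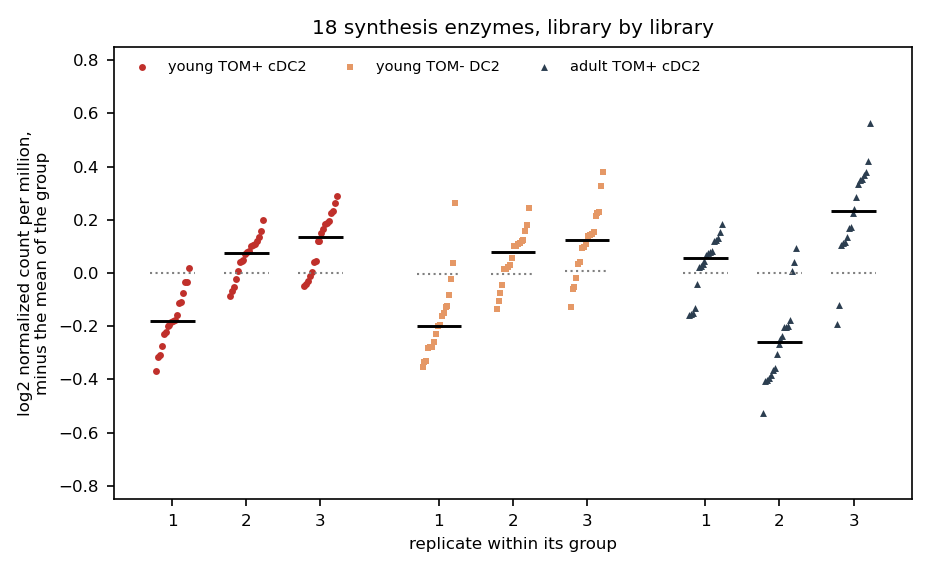
Deviation of the 18 synthesis enzymes from the mean of their group, in log2 of TMM-normalized CPM, for each of the 9 libraries, with a black line at the median of the enzymes and a dotted line at the median of all genes tested. Replicate 1 of both young groups and adult replicate 2 lie low, at -0.18, -0.20 and -0.26. The dotted lines stay at 0, close to where TMM normalization places them.

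Between the adult libraries, the ratio of the highest to the lowest normalized count was 2.03 for Hsd17b7, 1.87 for Sc5d, 1.78 for Fdps, 1.74 for Idi1 and 1.72 for Acat2, and 1.16 for Ebp, the smallest. Adult replicate 2 was lowest and replicate 3 highest for most of them, the exceptions being Mvk, Nsdhl and Ebp. Insig1, the feedback gene, kept the order of the enzymes in each group, with 24.3, 31.5 and 37.2 TPM in young TOM+, 23.6, 29.3 and 36.6 in young TOM- and 24.6, 19.7 and 29.4 in adult cells. Srebf2 did not, since replicate 2 was the lowest in both young groups. Mylip, which acts in the opposite direction on sterol uptake, was highest in replicate 1 of both young groups. Replicate 3 also had the most gene counts in each group (19661754, 22809401 and 16809639), and depth rose in the order of the enzymes in young TOM- cells (14270110, 15267439 and 22809401). It did not in young TOM+ cells, where replicate 1 had 18771127 and replicate 2 had 16128082, nor in adults, where replicates 1 and 2 had 12783252 and 12794523. The part of depth was not tested. Immediate early genes were lowest in the same young libraries, at 9070 and 8740 TPM against 12500 to 13000 TPM in the others, but in adults stood at 18700, 14500 and 13800 TPM, lowest in replicate 3, and their part was not tested. The young libraries that were lowest share the number 81.

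Genes around the pathway formed 8 lists of 69 genes, of which 65 were tested. Between young and adult TOM+ cDC2, 17 were higher and 19 lower in young cells (55.4% against the 40.6% of all genes), as were 14 and 17 in young TOM- DC2 (47.7% against 36.3%). No test compares these shares. The plot of the other pathway genes shows them list by list.

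**Figure D5:**
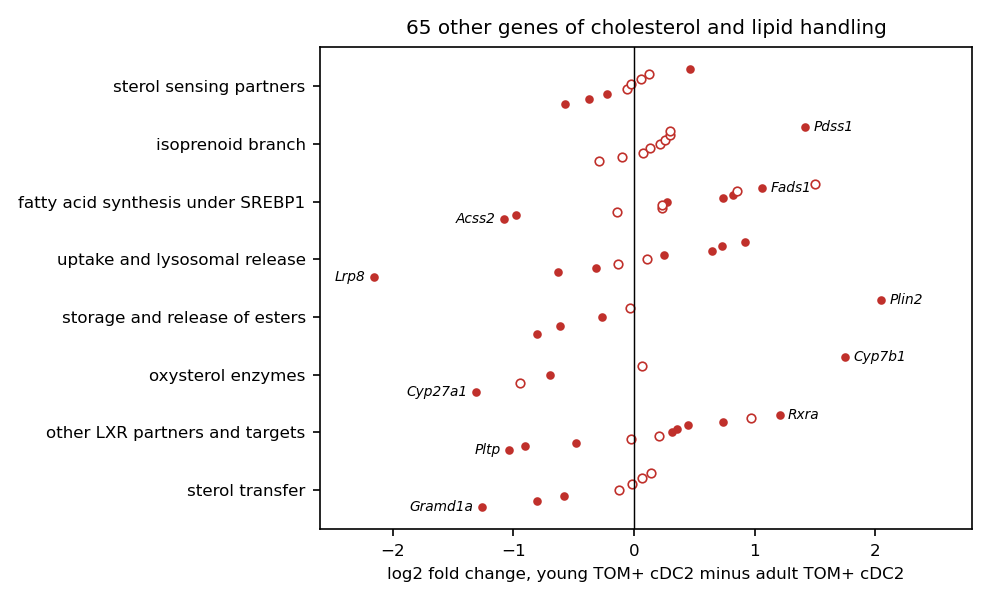
Log2 fold change of 65 other genes of cholesterol and lipid handling, young TOM+ cDC2 minus adult TOM+ cDC2, by list, with filled points past an adjusted p of 0.05 in edgeR and names for the genes beyond 1 in size that passed. Plin2 lies furthest right at 2.05 and Lrp8 furthest left at -2.15.

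Among genes of cholesterol ester storage and release, 1 of 5 was higher and 3 lower in young cells in both comparisons. Plin2, which coats lipid droplets, was at 119, 108 and 111 TPM in young TOM+, 116, 106 and 101 in young TOM- and 25.3, 25.1 and 24.0 in adult cells. The young and adult libraries were far apart, with log2 fold changes of 2.05 ± 0.08 and 1.96 ± 0.08 (SE; edgeR adjusted p = 1.72e-08 and 2.53e-08). Soat2, a cholesterol esterifying enzyme, was lower by -0.80 and -1.17 (edgeR adjusted p = 0.0429 and 0.00843) at 1.57 to 5.85 TPM. Soat1, the other esterifying gene of the list, was far more abundant at 44.3 to 57.9 TPM. It was lower by only -0.27 and -0.39 (edgeR adjusted p = 0.0179 and 0.00228). In the list of uptake and lysosomal release, 4 of 9 tested genes were higher and 3 lower in young TOM+ cells, and 3 were higher and 3 lower in TOM- cells. Lrp8, a receptor for apolipoprotein E, had 5.07, 5.03 and 5.52 TPM in young TOM+, 6.63, 5.77 and 7.52 in young TOM- and 19.0, 17.7 and 28.1 in adult cells. Like Apoe, it was lower in every young library, by -2.15 and -1.85 (edgeR adjusted p = 1.3e-06 and 4.79e-06).

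The list of LXR partners and further targets, which also holds the reductase gene Lbr, split. In young TOM+ cells 5 of 11 were higher (Rxra, Rxrb, Lpcat3, Abca2 and Lbr) and 3 lower (Pltp, Arl4c and Smpdl3a). In young TOM- cells 5 were higher and 2 lower. Since Rxra and Rxrb are partners, the split is not one of LXR targets alone. Rxra, the partner with which LXR binds DNA, was at 6.59 to 6.85 TPM in young TOM+, 6.88 to 7.14 in young TOM- and 2.53 to 2.76 in adult cells (log2 fold change 1.21 and 1.23, edgeR adjusted p = 6.22e-06 and 7.38e-06). Pltp, the phospholipid transfer protein, was lower in young cells, at 39.4 to 44.2 TPM against 64.7 to 83.4 TPM in adults (-1.04 and -1.01, edgeR adjusted p = 2.18e-05 and 3.39e-05). Lpl, lipoprotein lipase, was the 1 gene of all 8 lists that passed between the young groups, with 1.76, 2.02 and 1.12 TPM in TOM+ and 4.13, 4.05 and 3.45 TPM in TOM- cells (log2 fold change -1.21, edgeR adjusted p = 0.0386). Adult cells, at 0.99 to 1.85 TPM, overlapped with young TOM+ for Lpl.

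Oxysterol enzymes, 5 genes, had 1 higher and 2 lower in young TOM+ and 2 lower in young TOM- cells. Cyp27a1, which adds a hydroxyl group to the cholesterol side chain, was at 86.4 to 124, 96.2 to 130 and 214 to 261 TPM in young TOM+, young TOM- and adult cells. Each young library was below each adult one (-1.31 and -1.24, edgeR adjusted p = 5.89e-06 and 1.24e-05). Cyp7b1, which degrades oxysterols, had 0.51, 2.12 and 1.61 TPM in young TOM+ and 0.25, 0.57 and 0.25 in adult cells, from 5 to 46 counted reads over all libraries. The groups overlapped, with young TOM+ replicate 1 below adult replicate 2 (log2 fold change 1.75, edgeR adjusted p = 0.0468). Of 7 sterol transfer genes, 3 were lower in young TOM+ and 2 in young TOM- cells, led by Gramd1a, which brings plasma membrane cholesterol to the endoplasmic reticulum, at 32.8 to 35.9, 32.0 to 39.1 and 69.6 to 77.5 TPM (-1.26 and -1.18, edgeR adjusted p = 9.47e-07 and 2.01e-06).

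Fatty acid synthesis genes under SREBP1, 11 tested, had 4 higher and 2 lower in young TOM+ and 3 higher and 2 lower in young TOM- cells. Fads1, a desaturase of polyunsaturated fatty acids, was at 11.5 to 13.8, 9.53 to 12.7 and 5.19 to 5.94 TPM (1.06 and 0.82, edgeR adjusted p = 1e-04 and 0.000797), and Acss2, which makes acetyl-CoA from acetate, at 2.82 to 3.98, 3.06 to 3.92 and 5.16 to 6.97 TPM (-1.08 and -0.87, edgeR adjusted p = 0.000731 and 0.00333) in young TOM+, young TOM- and adult cells. The isoprenoid branch, 9 genes, had 1 past the threshold, Pdss1, which builds the side chain of ubiquinone, at 8.51 to 9.58, 6.18 to 8.74 and 2.15 to 3.46 TPM (1.42 and 1.20, edgeR adjusted p = 0.000296 and 0.00122). Partners of sterol sensing, 8 genes, had 1 higher and 3 lower in each comparison, none beyond 1 on the log2 scale, with the smallest adjusted p for Rnf145, a ubiquitin ligase of the sterol-sensing machinery (-0.58 and -0.56, edgeR adjusted p = 0.00053 and 0.000794), then Rnf139 in young TOM+ (0.46, 0.00299) and Mbtps1, the protease that makes the first cut of SREBP, in young TOM- cells (-0.39, 0.00297).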

How the data were processed

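Libraries were made from sorted cells with the SMART-seq v4 kit, which does not mark strand, and read from 1 end. The authors aligned reads to mm10 with STAR, and the deposited STAR counts of uniquely placed reads per gene are not normalized. The unstranded column was used, without STAR's 4 summary lines, which held 26.1% to 31.6% of all reads. The authors also deposited RSEM expected counts, which share out reads that match several transcripts and were rounded to whole numbers for 1 alternative, and TPM, used for levels. The deposited FPKM were not used. Counts of 9 libraries in 3 groups were tested in R 4.3.3 with edgeR 4.0.16 (quasi-likelihood test, TMM) on 14452 genes whose counts averaged 1 or more over libraries, with Benjamini-Hochberg adjustment over all of them. Intervals are approximate and cover counting and library spread only. DESeq2 1.42.0 and limma 3.58.1 served as alternatives. In simulated data for young against adult TOM+ cDC2 on 14452 genes, 200 genes were changed, all with counts well above the filter. Of these, edgeR recovered 93% of genes changed by a log2 of 1 and 100% of those changed by 2, with 14 false calls. Recovery of low-count genes and of smaller changes, and with as many genes changed as in the real comparison, was not simulated. No 2 libraries of a group were copies (chi-square per gene at least 9.181).

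Every member is named. Of 8 further pathway lists, genes past an adjusted p of 0.05 with a log2 fold change beyond 1 are named, or the 2 with the smallest p where none is, and marker lists are given as summed TPM with markers under 1 TPM. Members and lists were chosen with earlier results of these data known. Some further items are not reported here. Replicates were numbered in accession order. Deposited names carry the numbers 81, 91, 92 and 95, whose meaning the sources used here do not give. Same-numbered young libraries deviated together from their group means over all genes (r = 0.597, 0.314 and 0.405), whereas young and adult libraries of the same number did not (r = 0.008 to 0.089), so the numbers were taken to pair the young libraries only.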

Additional observations from a re-analysis of the deposited data

How the results depend on the processing

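Members past the threshold numbered 10 in young TOM+ and 8 in young TOM- cells against adults and 0 between the young groups. With the deposited number as a replicate block over all 9 libraries they numbered 17 (9 higher, 8 lower), 18 (11 and 7) and 1, but adult replicate 3 is alone with its number and adds nothing to the group differences there, and young and adult libraries were not paired by number. Between the young groups 1 member, Apoe, passed in DESeq2, without the filter on low counts and in limma on log2(TPM + 1) and log2(TPM + 0.1), and 3 passed with the block in the young libraries only, an alternative chosen after seeing the data. Leaving out 1 library gave 7 to 12, 5 to 10 and 0 to 1 members, the 5 without adult replicate 1. Relative log expression factors, RSEM counts and fits of only the compared groups gave counts within 1.5 times of the first. Over all genes, the young groups differed at 231 genes, at 367 in DESeq2, 949 with the block over 9 libraries, 1735 with the block in the young libraries, and 152 and 147 without young TOM+ replicate 2 and 3. On TPM, higher calls were 67.4% to 67.9% of genes in young TOM+ (51.9% on counts) and 73% to 73.9% in young TOM- cells (53.5%). Of 493, 493 and 522 single-member values under alternatives, 444, 449 and 512 stayed on their side of the threshold, 29, 19 and 0 fell below it, 20, 25 and 10 rose past it and none of those past the threshold turned its sign. The cause of these shifts was not tested. Members under 100 counts in their lowest library (Idi1, Tm7sf2, Abca1, Hsd17b7, Nr1h3 and Acat2) are limited by depth.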
